A study of Caenorhabditis elegans with 8 samples.

Results

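The 4 wild-type libraries of a Caenorhabditis elegans study of sorted cells are described here by what they contained, that is by the abundance ranks of their genes, their composition and how far the libraries agreed. They were chosen by their label alone and are 4 of the 8 libraries of the series. All 4 came from strain N2, the standard wild type, carrying the reporter daf-7p::gfp, in populations synchronised at the L4 larval stage. Per the labels, animals were dissociated with SDS, DTT and Pronase, strained, stained with DAPI and sorted on a Bio-Rad S3e, and the cell type is given as neuron. The extraction protocol speaks of homogenised animals, so the material between the sort and the RNA is described only in part. Total RNA was made into libraries with the Ovation SoLo kit. No sample was dropped and no genotypes were compared, so the values are descriptions, with no test between groups.

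The daf-7 gene encodes a TGF-beta ligand made mainly in the ASI pair of ciliated sensory neurons in the head, where it signals favourable conditions and holds back dauer entry. A daf-7 promoter therefore drives fluorescence in ASI. The ASI pair also makes the insulin-like peptides daf-28 and ins-6, and like other ciliated neurons it uses intraflagellar transport to build its sensory ending.

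Levels are given on 3 scales. CPM is a gene's counts per 1000000 counts of a library size scaled by TMM, the trimmed mean of M-values, and serves to compare a gene across libraries. TPM is counts per kilobase of exon, scaled to the same total over protein-coding genes in each library, and serves to rank genes within libraries. A share is a percentage of a library's counts. Gene counts were 7927544, 9652874, 5475892 and 10740970 in replicates 1 to 4, so that replicate 3 was the shallowest. Replicate 2 stood apart from the other libraries in composition, genes detected and agreement, and values without it are given beside several of the results that rest on it.

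Composition was mostly messenger RNA with a variable share of ribosomal RNA. Ribosomal RNA genes took 11.99, 33.9, 10.04 and 8.94% of gene counts in replicates 1 to 4, a mean of 16.21 ± 11.84% (SD, n = 4), against 10.3% without replicate 2. Protein-coding genes took 86.1, 63.0, 87.8 and 89.3%, a mean of 81.5 ± 12.4% (SD, n = 4). Replicate 2 was the highest in ribosomal RNA and the lowest in protein-coding RNA, and its exact 95% interval for ribosomal RNA, 33.8 to 33.9%, was far narrower than the gap between libraries. A single row, rrn-3.1 of the 26S ribosomal RNA, held most of it, with 872878, 3029775, 488137 and 860975 counts. The 18S row rrn-1.1, picked out after its values were seen, held 79 to 616 counts per library. Reads that aligned to several places were not counted to genes, and they were 22.5, 29.3, 21.3 and 15.5% of the reads in the count files, so ribosomal RNA and other repeated genes are understated by an unknown amount.

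The remaining classes were small. Annotated ncRNA rows took 1.11 ± 0.541%, snoRNA 0.572 ± 0.208%, pseudogenes 0.470 ± 0.0785% and piRNA rows 0.0508 ± 0.0402% of gene counts (SD, n = 4). Transfer RNA and miRNA rows stayed near 0, at 0.00244 ± 0.00106% and 0.00154 ± 0.000612%. The most abundant small structural RNAs were ZK185.9, a snoRNA, and mrpr-1, the RNA of RNase MRP, which trims ribosomal RNA precursors. The mrpr-1 level was 1262, 4698, 1122 and 1409 CPM in replicates 1 to 4. The RNase P RNA rpr-1, which matures transfer RNAs, stood at 860, 3237, 726 and 746 CPM, and the signal recognition particle RNA srpr-2.1 at 620, 4951, 328 and 479 CPM. Each of these RNAs was highest in replicate 2, the library with the most ribosomal RNA.

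**Figure D1:**
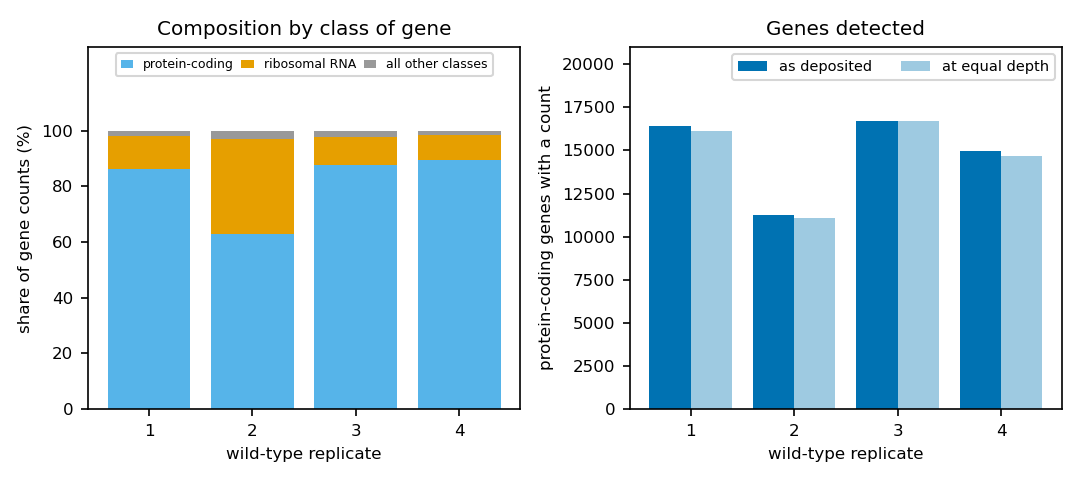
Left, share of gene counts (%) held by protein-coding genes, ribosomal RNA genes and all other classes in each wild-type replicate. Right, protein-coding genes with at least 1 count as deposited and after thinning all libraries to the depth of replicate 3. Replicate 2 has the most ribosomal RNA (33.9%) and the fewest genes detected (11250).

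Across chromosomes, protein-coding counts were held by chromosome I at 21.8 ± 0.551%, III at 20.6 ± 0.609%, IV at 18.5 ± 0.993%, V at 14.4 ± 0.502% and II at 14.4 ± 0.184% (SD, n = 4). Chromosome V has the most protein-coding rows, 4995, against 2877 on chromosome I. The X chromosome held 8.48, 8.30, 8.64 and 6.37% with 2729 rows, and replicate 4 was the low one. The mitochondrial genome, with 12 protein genes, held 1.75, 2.75, 2.42 and 1.95%.

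Of 19976 protein-coding genes, 17805 had a count in at least 1 library and 10910 in all 4. Single libraries detected 16412, 11250, 16684 and 14952 protein-coding genes in replicates 1 to 4. Replicate 2 detected the fewest, although it was deeper than replicate 3 in protein-coding counts (6076834 against 4805562). At the equal depth of 4805562 protein-coding counts the numbers were 16101, 11107, 16684 and 14697, in the same order. Genes with a count in every library but 1 numbered 3286 for replicate 2, against 22, 44 and 166 for replicates 1, 3 and 4. In replicate 2, 20 genes stood at 0 with at least 100 counts in each of the other libraries, while replicates 1, 3 and 4 had 0 such genes each. An example, chosen after its values were seen, was prp-18, a pre-mRNA splicing factor, with 0 counts in replicate 2, against 311, 283 and 540 in replicates 1, 3 and 4. A count of 0 allows up to 3 counts in a library, which is 0.461 CPM in replicate 2.

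Replicate 2 also held genes that the other libraries lacked. Its 21 protein-coding genes with at least 20 counts and 0 elsewhere compare with 0, 3 and 6 such genes in replicates 1, 3 and 4. They included str-3, a chemoreceptor gene used as an ASI marker, with 39 counts in replicate 2 and 0 in the others, and the cuticle collagens col-131 and col-51 with 87 and 51 counts. These examples were picked after their values were seen.

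Abundance was spread over many genes. The 100 highest protein-coding genes held 18.9, 25.4, 17.6 and 20.5% of protein-coding counts, a mean of 20.6 ± 3.42% (SD, n = 4). The 50% mark of the counts was reached with 825, 514, 873 and 785 genes, so replicate 2 was the most concentrated library. The gene with the most counts was eef-1A.1, which encodes translation elongation factor 1-alpha and carries transfer RNAs to the ribosome, in replicates 1, 2 and 4, and mitochondrial COX1 in replicate 3.

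Per length, ribosomal protein genes were the largest group among the leading 25 genes. Of the 25 genes with the highest mean TPM, 14 encode cytosolic ribosomal proteins (the ubiquitin fusion gene ubq-2 among them), 5 core histones and 3 mitochondrial subunits of cytochrome c oxidase, and of the highest 100 genes 68 are ribosomal. The small ribosomal protein gene rpl-41.2 ranked first, with 8066, 7803, 7467 and 10821 TPM. The eef-1A.1 gene ranked 3, with 5944, 8719, 6173 and 6906 TPM. The leading 100 genes of all 4 libraries shared 79 genes. The 81 ribosomal protein genes were detected in every library, 80 of them ranked in the leading 1000 of the mean TPM, and together they made 21.7 ± 2.58% of all TPM (SD, n = 4). As a share of protein-coding counts they took 8.69, 11.9, 7.59 and 11.6%, with replicates 2 and 4 above replicates 1 and 3.

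Genes of fat binding and respiration were also in the leading 25, with far-2 at rank 2, COX1 at rank 4 and COX3 at rank 5. The secreted fatty acid and retinol binding proteins far-2 and far-1 stood at 10469, 5355, 4618 and 7412 TPM and at 4327, 2869, 3243 and 4452 TPM. Replicate 1 was the highest library for far-2 and replicate 4 for far-1. COX1, the catalytic subunit of cytochrome c oxidase, had 5330, 7958, 8509 and 4800 TPM, and COX3 had 5489, 6066, 7762 and 4991 TPM. Both were highest in replicate 3 by TPM, but in replicate 2 by CPM. COX1 had 9673 CPM in replicate 2 and 7057 in replicate 3, and COX3 had 3589 and 3133. The ubq-2 gene, which yields ubiquitin and a ribosomal protein, had 3681, 3137, 3081 and 4250 TPM, a range that did not separate any library.

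Histone genes varied between libraries. The core histone gene his-64 had 3465, 10711, 2328 and 5506 TPM, a mean of 5502 ± 3713 (SD, n = 4). The genes his-59 and his-48 had the same order, with replicate 2 at 9155 and 7076 TPM and replicate 3 at 2256 and 2179 TPM. Over the 81 histone genes the share of protein-coding counts was 0.833, 1.92, 0.550 and 1.21%, a mean of 1.13%, against 0.865% without replicate 2. Histone, major sperm protein, vitellogenin, actin and ribosomal RNA genes have near-identical copies, so the split of reads among copies is uncertain.

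**Figure D2:**
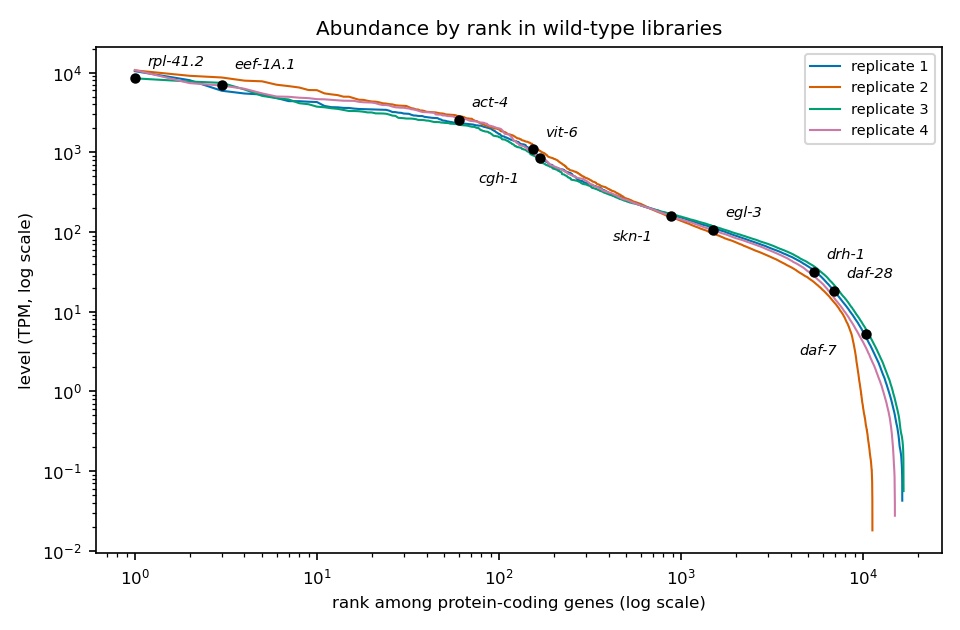
Level in TPM (log scale) by rank among protein-coding genes (log scale) in each wild-type replicate, 1 line per library. Points mark the mean TPM and rank of 10 genes of the text, from rpl-41.2 at rank 1 to daf-7 at rank 10319, and the line of replicate 2 drops off first.

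Markers of ASI had low levels. The daf-7 gene had 75, 3, 53 and 28 counts in replicates 1 to 4, or 8.33, 0.461, 8.38 and 2.31 CPM, and ranked 10319 by mean TPM among 19974 protein-coding genes with a length. Replicates 1 and 3 were alike and replicate 2 was at the level that a count of 0 allows. The daf-28 gene had 62, 106, 44 and 84 counts, or 6.89, 16.3, 6.95 and 6.92 CPM, and was highest in the library where daf-7 was lowest. The gpa-4 gene, a G protein alpha subunit of chemosensory neurons, had 28, 0, 30 and 6 counts, and ins-6 had 20, 0, 8 and 9. The odorant receptor gene str-2 was at 0 in every library, which allows up to 0.333, 0.461, 0.474 and 0.247 CPM. The 7 markers together held 195, 159, 142 and 127 counts. That is 0.00286% (exact 95% interval 0.00247 to 0.00329), 0.00262% (0.00223 to 0.00306), 0.00295% (0.00249 to 0.00348) and 0.00132% (0.00110 to 0.00158) of protein-coding counts in replicates 1 to 4. The gfp transcript itself was not analysed here.

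Neuronal genes were present at low to middle levels. The 32 pan-neuronal genes were all detected, 30 of them in every library, and took 0.251, 0.218, 0.530 and 0.2005% of protein-coding counts. Their median rank by mean TPM was 4951. The highest was tbb-1, a beta-tubulin that is also broadly expressed, followed by egl-3, a proprotein convertase that cuts neuropeptide precursors, at 84.6, 55.5, 258 and 32.2 TPM. The third, the endoplasmic reticulum protein gene maco-1, had 75.7, 27.99, 98.0 and 66.7 TPM. Replicate 3 was the highest library for egl-3 and maco-1, but not for tbb-1, at 379, 676, 337 and 437 TPM. Of the list's 17136, 13247, 25460 and 19232 counts, tbb-1 held 2899, 4977, 1647 and 5259. It weighed most in replicate 2 and least in replicate 3.

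The 44 genes of ciliated sensory neurons had a median rank of 12509, and 13 of them had a count in every library. Their share of protein-coding counts was 0.0349, 0.0119, 0.0723 and 0.0250%. The most abundant by CPM was che-10, the rootletin of the ciliary rootlet, with 51.4, 2.00, 125 and 31.1 CPM. It was followed by odr-4, which brings chemoreceptors to the cilium, with 41.98, 32.7, 48.5 and 54.7 CPM, and daf-19, the RFX factor of ciliary genes, with 23.8, 29.1, 40.6 and 14.1 CPM. Only che-10 of these separated replicate 2 from the rest.

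Of 1309 chemoreceptor genes, 709 had a count in some library and 17 in all 4. The highest was sri-40, at 61.9, 50.6, 46.5 and 57.7 CPM, a spread of 12.8% (CV). The next, srr-4, had 20.3, 1.23, 21.2 and 11.9 CPM and was low in replicate 2.

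The 17 transmitter genes took 0.0603, 0.0388, 0.0818 and 0.0450% of protein-coding counts. The leading pair, tdc-1 and tbh-1, make tyramine and octopamine and are also known from the gonadal sheath. Of the list's 4111, 2355, 3933 and 4319 counts, tdc-1 held 1186, 1548, 924 and 2149 and tbh-1 held 2087, 509, 1044 and 1564. The pair thus held most of the counts in replicates 1, 2 and 4, and the summed share does not stand for neurons alone. The tdc-1 level was 132, 238, 146 and 177 CPM, and the tbh-1 level 232, 78.2, 165 and 129 CPM. The third, unc-25, the glutamic acid decarboxylase that makes GABA, had 18.7, 20.9, 87.7 and 14.5 CPM, and replicate 3 stood far above the other libraries.

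Of 113 neuropeptide genes 109 were detected, 74 of them in every library. The highest were nlp-27 and nlp-29, antimicrobial peptide genes known from the epidermis, at 167, 73.9, 93.9 and 121 CPM and at 100.5, 31.7, 89.6 and 55.2 CPM. The third, nlp-49, had 39.5, 76.5, 141 and 19.03 CPM and differed most between replicates 3 and 4. The insulin-like genes were lower, with ins-37 at 5.00, 28.1, 0.790 and 9.23 CPM and ins-28 at 6.55, 13.7, 5.53 and 4.45 CPM as the leading members beside daf-28.

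Muscle, germline and yolk genes were more abundant than pan-neuronal genes. The 34 body wall muscle genes were all detected in every library, had a median rank of 964 and took 3.23, 3.63, 3.39 and 2.41% of protein-coding counts, lowest in replicate 4. The myosin heavy chain gene unc-54 had 1315, 1994, 1457 and 823 TPM, the paramyosin gene unc-15 had 988, 865, 1103 and 654 TPM, and the actin gene act-4 had 2708, 2968, 2556 and 2001 TPM. In bulk RNA, fewer cells of a type and less RNA per cell cannot be told apart, and lists of different size and gene length are not on a common scale of cell number. Per length, muscle genes made 1.85 ± 0.295% of TPM, against 0.195 ± 0.102% for pan-neuronal genes and 0.00324 ± 0.000964% for ASI markers (SD, n = 4). By counts in every library, and by mean TPM, the ASI and pan-neuronal lists lay below the muscle list. These lists therefore do not show that the libraries were mainly of neurons, and the libraries are called here by their label only.

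Germline genes took a per-length share like that of muscle genes and a smaller share of counts. Its 50 genes were all detected in every library, had a median rank of 889 and took 2.46, 2.15, 2.07 and 2.61% of protein-coding counts, or 1.84 ± 0.229% of TPM (SD, n = 4). The germline helicase gene cgh-1 had 1215, 1216, 1110 and 1329 CPM, a CV of 7.35%. The eggshell genes cbd-1 and cpg-1, whose products bind chitin and carry chondroitin, had 1552, 2168, 1588 and 1852 CPM and 1282, 1440, 1094 and 1784 CPM. The libraries lay close together in cgh-1, replicate 2 included. Over the 50 genes the median fold to the median of the other libraries was 0.887, 1.17, 0.788 and 1.23. In replicate 4, 47 genes were above that median, and in replicate 3 only 3.

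Sperm genes differed more between libraries. The 67 sperm genes took 0.231, 0.866, 0.1004 and 0.702% of protein-coding counts, a range of 8.62-fold. The major sperm protein gene msp-59 had 84.3, 415, 26.5 and 311 CPM, and msp-40 had 63.6, 407, 33.5 and 211 CPM. Replicates 2 and 4 were high and replicates 1 and 3 low in both.

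Yolk protein genes, which the intestine makes and which are known to come on with adulthood, were abundant in these L4 libraries. The 6 vitellogenin genes took 1.23, 2.17, 0.676 and 0.911% of protein-coding counts. The vit-6 gene had 1138, 1796, 699 and 770 TPM at a mean rank of 154. The collagen gene col-19, a standard marker of the adult cuticle picked out after its values were seen, had 630, 979, 359 and 772 CPM. Replicate 2 was the highest and replicate 3 the lowest for all of them, and whether animals past L4 contributed was not tested. Other intestinal genes took 0.295, 0.566, 0.304 and 0.222%. Among them the aspartyl proteases asp-1 and asp-6 had 333, 1345, 302 and 266 CPM and 230, 864, 298 and 189 CPM, high in replicate 2, while the apical membrane linker erm-1 had 306, 243, 314 and 277 CPM.

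Epidermal genes took 0.0814, 0.122, 0.0848 and 0.0686% of protein-coding counts. The junction gene ajm-1 had 171, 125, 254 and 129 CPM and the epithelial fate factor lin-26 had 128, 116, 118.8 and 116 CPM, without separating replicate 2. The attachment gene mua-3, which links epidermis to cuticle, had 85.1, 241, 91.0 and 68.9 CPM and did separate it.

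The pharynx, glia, coelomocyte and somatic gonad lists were small. Pharyngeal genes took 0.0659, 0.0892, 0.141 and 0.0372%, with the pharyngeal myosin gene myo-2 at 129, 231, 362 and 60.7 CPM and myo-1 at 130, 216, 338 and 72.2 CPM. Replicate 3 was the highest and replicate 4 the lowest. Glial genes took 0.0412, 0.0414, 0.0397 and 0.0294%, led by the kinase gene lit-1 at 113, 196, 94.8 and 80.2 CPM and the glutamate transporter gene glt-1 at 96.4, 108, 84.9 and 63.0 CPM. Coelomocyte genes took 0.0152, 0.0141, 0.0139 and 0.0297%, and the channel gene cup-4, needed for their endocytosis, was at 65.7, 85.8, 63.7 and 151 CPM, highest in replicate 4. Somatic gonad genes took 0.0361, 0.0170, 0.0437 and 0.0292%, with the sheath innexin gene inx-8 at 67.0, 62.9, 72.2 and 44.6 CPM.

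**Figure D3:**
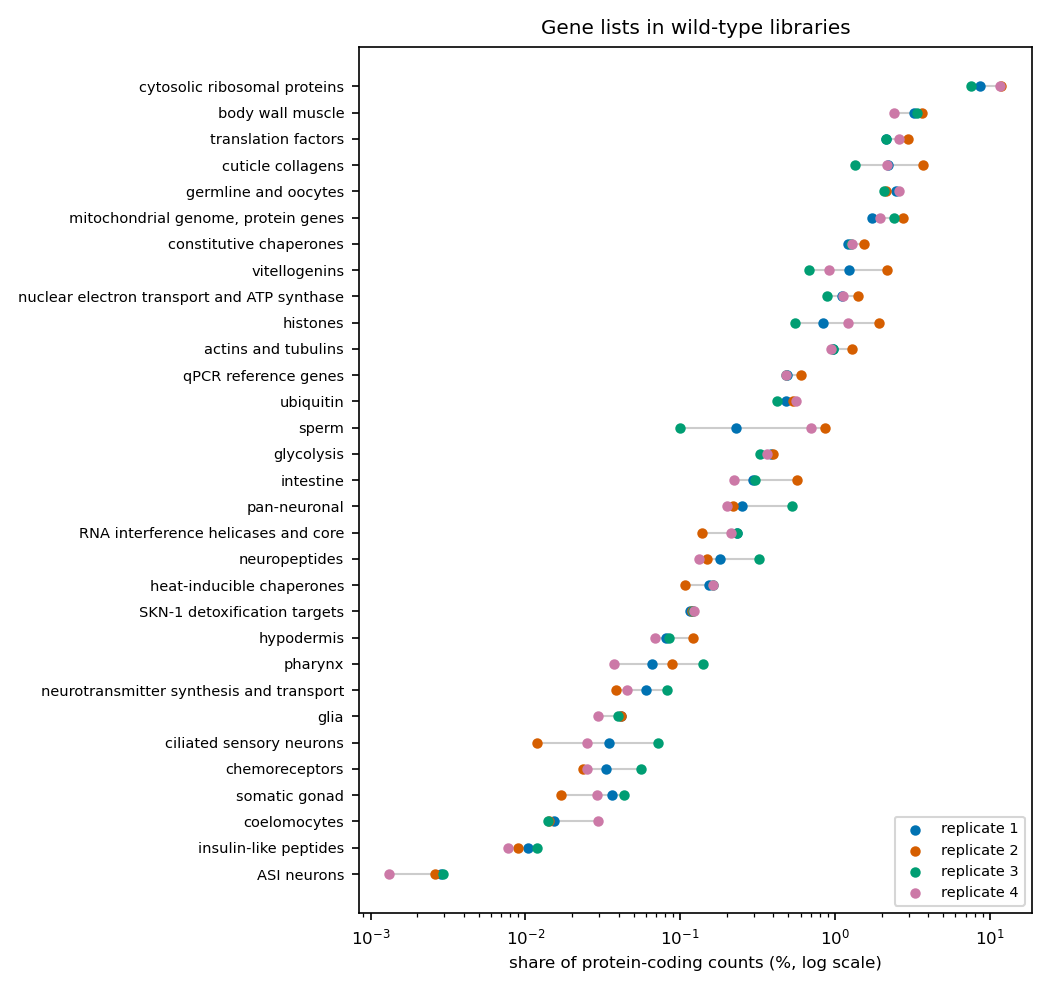
Share of protein-coding counts (%, log scale) of each of 31 gene lists, 1 point per wild-type replicate. Ribosomal proteins are at the top and ASI markers at the bottom, and sperm genes span the widest range (0.1004 to 0.866%).

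The genes the study is named for were detected in every library. The transcription factor gene skn-1 had 2432, 2860, 1862 and 2545 counts, or 158, 193, 189 and 105 TPM, and ranked 881. The Dicer-related helicase gene drh-1, part of the antiviral RNA interference machinery, had 641, 339, 433 and 793 counts, or 37.3, 20.5, 39.5 and 29.3 TPM, and ranked 5396. In CPM the spread of drh-1 was 13.1% and that of skn-1 was 32.1% (CV, n = 4).

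The list of SKN-1 targets was even across libraries, and the RNA interference list less so. The 20 genes of the first, detoxification enzymes with regulators of the pathway, took 0.116, 0.119, 0.121 and 0.123% of protein-coding counts, the narrowest range of the 31 lists (1.06-fold). They were led by the peroxiredoxin gene prdx-2 at 195, 290, 145 and 242 CPM, the thioredoxin reductase gene trxr-1 at 127, 150, 130 and 114 CPM and the gene of the regulatory MAP kinase mpk-1 at 110, 133, 146 and 111 CPM. The evenness of the sum did not hold for each gene, since prdx-2 was high in replicate 2 and low in replicate 3. The 15 RNA interference genes were all detected in every library and took 0.234, 0.138, 0.232 and 0.214%. Their leading member dcr-1, the Dicer nuclease, had 204, 178, 209 and 172 CPM, whereas mut-16, a scaffold of mutator foci, had 217, 94.8, 195 and 207 CPM and was low in replicate 2.

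Chaperone genes included sip-1, a small heat shock family gene of oocytes and embryos, at rank 82 with 2327, 1365, 2661 and 2352 TPM. The heat-inducible list includes sip-1. Stress-induced genes were far lower. The small heat shock gene hsp-16.2 had 26, 118, 161 and 93 counts and hsp-70 had 108, 2, 208 and 343, both picked after their values were seen. The constitutive chaperone gene hsp-1 had 1632, 1998, 2032 and 1692 TPM.

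Agreement between libraries was read from 13018 protein-coding genes with a mean of at least 1 CPM. Spearman coefficients across genes, which are not independent replicates, were 0.817, 0.748 and 0.820 for replicate 2 with replicates 1, 3 and 4. They were 0.937 for replicates 1 and 3, 0.959 for 1 and 4, and 0.881 for 3 and 4. Replicates 1 and 4 had 85.0% of genes within 2-fold, and replicates 2 and 3 had 42.2%. The median over the 6 pairs was 0.851, and 0.937 over the 3 pairs without replicate 2. On principal components, the leading axis took 78.3% of the variance and placed replicate 2 at 167, against −51.4, −79.8 and −35.7 for replicates 1, 3 and 4. The next axis took 17.4% and ran from replicate 3 at 62.1 to replicate 4 at −66.0.

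**Figure D4:**
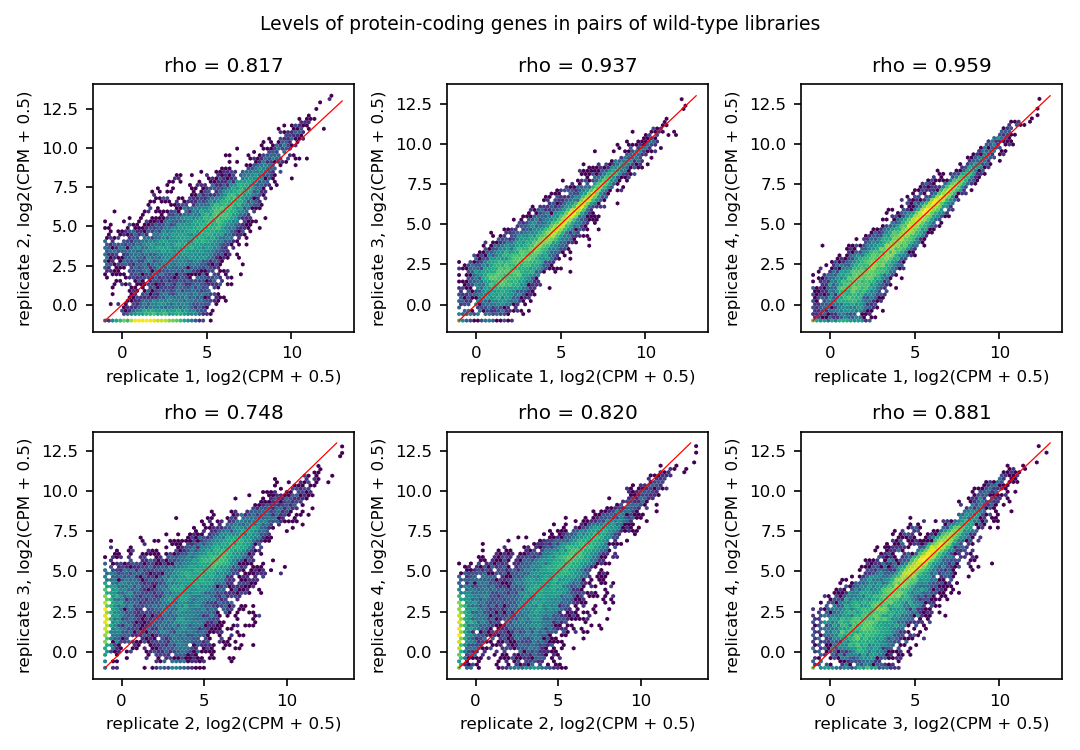
Levels of 13018 protein-coding genes in each pair of wild-type replicates as log2(CPM + 0.5), with colour for the number of genes on a log scale and the red line for equality. Pairs with replicate 2 show a band of genes at the lower edge of replicate 2 and Spearman coefficients (rho) of 0.748 to 0.820, against 0.881 to 0.959 for the other pairs.

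The common biological coefficient of variation from edgeR was 0.498 over 8960 genes, and 0.373 without replicate 2. The spread depended on the level. The median CV of a gene was 82.8% at 1 to 10 CPM, 37.2% at 10 to 100 CPM, 24.2% at 100 to 1000 CPM and 31.9% above that. Without replicate 2 these were 51.6, 19.9, 13.9 and 23.8%.

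The steadiest genes were not the most abundant. Among 3630 genes with a mean of at least 50 CPM the median CV was 25.6%, and 308 genes were under 10%. The lowest CV was that of the mismatch repair gene msh-6, with 174, 178, 176 and 173 CPM and a CV of 1.27%. The RNA-dependent RNA polymerase gene rrf-1 followed, with 104.06, 108, 106 and 104.11 CPM and a CV of 1.60%. The PP2A regulatory subunit gene sur-6 had a CV of 1.97%. The endoplasmic reticulum exit site gene sec-16A.1 followed at 2.04%, Y45F10D.7 at 2.16% and F56H9.2 at 2.23%. The RNA methyltransferase gene nsun-1 had 2.54%, F12F6.1 and the synapsis gene cra-1 2.56% each and the PP2A subunit gene pptr-2 2.78%. Genes in common use as qPCR references had a median CV of 31.3%, and the 11 that passed 50 CPM ranged from 6.18 to 35.2%. All of these values are relative to TMM scaling. Against total counts, it changed the library sizes of replicates 1 to 4 by 0.18, −0.57, 0.21 and 0.18 on the log2 scale. Levels in replicate 2 were thus raised and those in the other libraries lowered.

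Genes that set a library apart were counted as those at least 10-fold above or below the median of the other 3 libraries, on CPM + 0.5, among 9651 genes with a mean of at least 5 CPM. Replicate 1 had 1 gene above (0.0104%) and 1 below (0.0104%), and replicate 4 had 2 above (0.0207%) and 11 below (0.114%). Replicate 3 had 40 above (0.414%) and 12 below (0.124%). Replicate 2 had 158 above (1.64%) and 804 below (8.33%). The median fold over all genes was 0.999, 1.01, 0.975 and 1.02 in replicates 1 to 4, a balance that TMM scaling sets, and by total counts that of replicate 2 was 0.585. A gene can pass the filter through the library described alone. With the filter set on the other 3 libraries, an alternative added after seeing the data, replicate 2 had 31 above (0.325% of 9539 genes) and 960 below (10.06%), and replicate 3 had 6 above.

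Cuticle collagens, the structural proteins that the epidermis secretes at each moult, were among the genes high in replicate 2. Of 178 collagen genes 107 passed the filter, some of them only through replicate 2, and 52 of these were at least 10-fold above the other libraries. With the filter set on the other libraries, 71 passed and 20 of them (28.2%) were at least 10-fold above, with a median fold of 5.49, against 0.325% and 0.921 over all genes. By total counts and the first filter, 37.5% of the collagens were at least 10-fold above with a median fold of 5.32, against 0.679% and 0.585 over all genes. The col-138 gene had 244 CPM in replicate 2, against 6.66, 0.790 and 3.29 CPM in replicates 1, 3 and 4. The collagen genes rol-1 and col-88 had 184 and 169 CPM in replicate 2, against 2.06 to 7.88 and 1.42 to 3.66 CPM in the others. These collagens were named as genes furthest above the other libraries in replicate 2, so the gap follows from that choice. The most abundant collagens differed less, with col-122 at 1513, 2361, 736 and 1542 CPM, col-119 at 1616, 1450, 1216 and 1758 CPM and col-124 at 1379, 2113, 555 and 1502 CPM. As a family the collagens took 2.202, 3.69, 1.34 and 2.18% of protein-coding counts.

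The other genes that led replicate 2 were not collagens. The hedgehog-related gene wrt-6, a member of the epidermal list, had 208 counts in replicate 2, against 1, 4 and 0 in replicates 1, 3 and 4. The idpc-3 gene had 195 counts, against 1, 0 and 0. Of the 16 epidermal genes that pass the filter on the other libraries, 0 were at least 10-fold above, and their median fold was 1.83.

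The 804 genes low in replicate 2 were mostly of middle to low level, and 249 of them had 0 counts there. Of genes with 10 to 20 CPM in the other libraries 19.2% were low, against 8.51% at 20 to 50 CPM, 1.82% at 50 to 100 CPM and 0.166% above that. Of 73 neuropeptide genes 12 (16.44%) were among them, of 11 ciliated genes 4, of 7 somatic gonad genes 3 and of 6 glial genes 2, against 8.33% of all genes. Nearer to that share were the pan-neuronal list, with 3 of 30 genes (10%), and the transmitter list, with 1 of 10 (10%). The ciliary dynein gene che-3 had 0 counts in replicate 2, against 129, 213 and 90 in replicates 1, 3 and 4. The neuropeptide gene flp-8 had 1 count, against 88, 131 and 120, both picked after their values were seen. The synaptotagmin gene snt-1, the calcium sensor of transmitter release, had 1 count in replicate 2, against 222, 702 and 185. It too was picked after its values were seen. Since genes of such levels were often low in replicate 2, these counts are not shown to be particular to neuronal genes. The larger ribosomal share and smaller number of genes of replicate 2 moved with them, and their part in the result was not tested.

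Most neuronal lists were highest in replicate 3. The median fold was 3.15 over 30 pan-neuronal genes, 4.09 over 10 transmitter genes, 2.86 over 11 ciliated genes and 2.16 over 73 neuropeptide genes, against 0.975 over all genes. It was 1.00 over the insulin-like genes, and lists that are not neuronal were also above 1 there, at 1.84 for the pharynx and 1.77 for heat-inducible chaperones. With the filter set on the other libraries the median fold was 3.15 over 30 pan-neuronal, 1.62 over 6 transmitter, 1.69 over 7 ciliated, 1.98 over 61 neuropeptide and 0.664 over 4 insulin-like genes, against 0.957 over all genes. Of the 30 pan-neuronal genes 29 were above the other libraries, but 1 was past 10-fold. That gene was unc-31, which primes dense core vesicles for release, with 86.8 CPM in replicate 3, against 18.2, 6.46 and 4.94 CPM in replicates 1, 2 and 4. Without replicate 2, the median fold of 31 pan-neuronal genes was 3.59 and 30 of them were higher in replicate 3.

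Single genes high in replicate 3 follow. All but eat-4 were named as those furthest above the other libraries there, so their place is set by that choice. The vesicular glutamate transporter gene eat-4, picked after its values were seen, had 33.7 CPM in replicate 3, against 5.33, 0.769 and 2.39 CPM in replicates 1, 2 and 4. The metabotropic glutamate receptor gene mgl-2 had 43.3 CPM, against 10.2, 0 and 1.32 CPM. The exchanger gene ncx-4 had 31.8 CPM, against 8.22, 0 and 0.824 CPM. In both of these replicate 1 lay between replicate 3 and the other libraries. The Wnt gene egl-20 had 106 counts in replicate 3, against 40, 0 and 2. T01D3.3 had 295 counts, against 62, 2 and 17, and ZK287.1 had 176, against 42, 3 and 5. The count of genes past 10-fold in replicate 3 depended on replicate 2: without it, 3 genes were above and 2 below (0.0314% above of 9539).

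The 12 genes low in replicate 3 (0.124% of all) included 6 of 55 sperm genes, whose median fold was 0.149, against 0.975 over all genes. That count was 2 by total counts, 4 by protein-coding totals and 0 of 52 without replicate 2, where the median fold was 0.216. The same 55 genes had a median fold of 3.29 in replicate 4, with 53 above the other libraries, and of 4.60 in replicate 2, with 52 above. The 3 coelomocyte genes had a median fold of 1.91 in replicate 4, against 1.02 over all genes. The nematode peptide family gene nspc-4 split the libraries in pairs, with 44.8 and 39.2 CPM in replicates 1 and 4, against 2.92 and 3.79 CPM in replicates 2 and 3. Its relative nspc-12 had 27.99 and 38.5 CPM, against 2.31 and 4.58 CPM, in the same pairs. The other genes that led replicate 1, ifp-1 and EGAP4.1, were higher still in replicate 3, at 35.1 and 22.1 CPM, against 14.99 and 8.995 CPM in replicate 1. Those that led replicate 4 were C04G2.5 with 216 counts, against 48, 0 and 7 in replicates 1 to 3, and F54C9.14 with 165, against 54, 0 and 5. F57F4.1 had 319, against 91, 2 and 22.

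**Figure D5:**
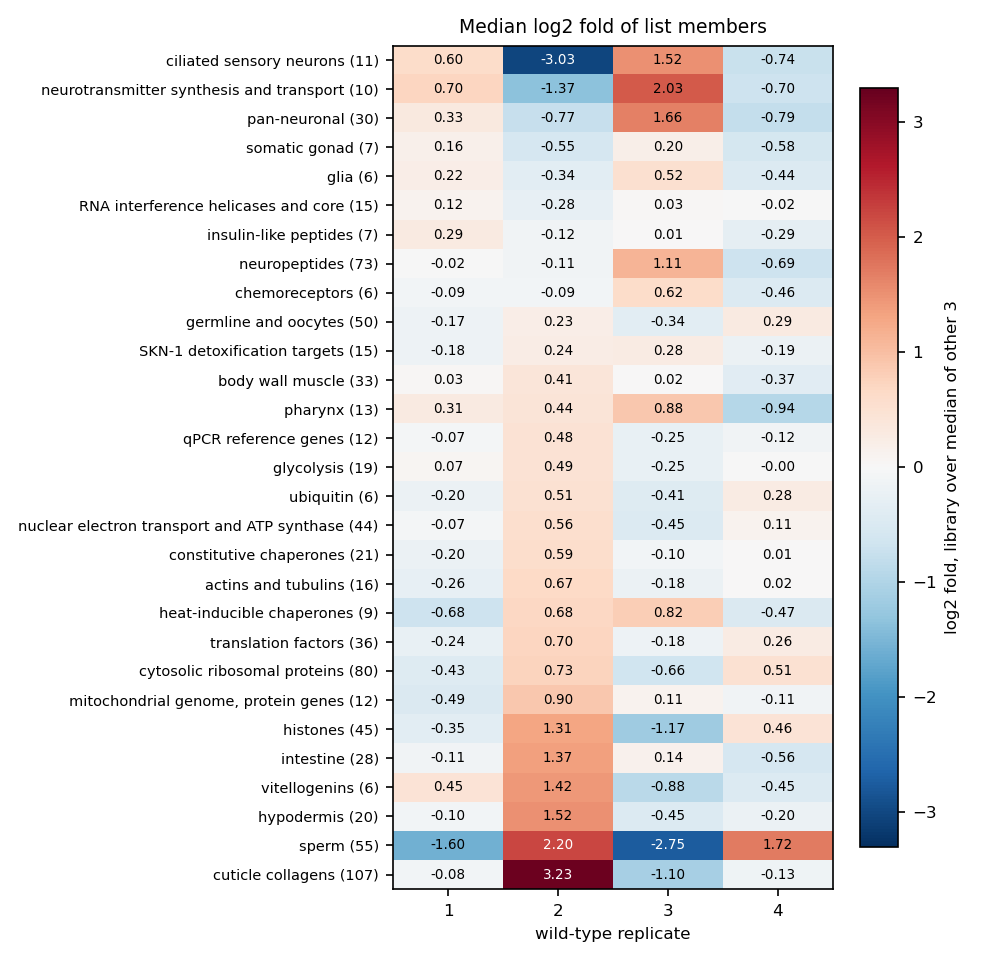
Median log2 fold of the members of each list in a wild-type replicate over the median of the other 3 libraries, for members with a mean of at least 5 CPM (their number in brackets). Replicate 2 is high for collagens (9.36-fold) and low for ciliated genes, and replicate 3 is high for the pan-neuronal, transmitter, ciliated and neuropeptide lists but not for insulin-like genes. Some collagens pass the 5 CPM only through replicate 2.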

How the data were processed

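The authors deposited raw gene counts, whole numbers in 1 table for each library, which were taken unchanged. The submitters' processing notes name the aligner STAR 2.7.6a, the counter HTSeq 2.0.2, R 3.5.2 with DESeq2, and ce10 as the genome build. Annotation, strandedness and the treatment of duplicate reads or UMIs were not given in the sources used here, so overlapping antisense genes cannot be told apart. Intervals (exact Clopper-Pearson) and floors (3 counts) cover counting error only. Of 46928 gene rows, 46919 found a symbol in RefSeq's gene table for WBcel235, and the other 9 have no class. The 5 summary lines stayed out of all totals. Exon lengths came from Ensembl release 115, also of WBcel235, and no coordinates were used. Names of 2 list genes, tni-2 and ram-4, were not matched.

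TMM factors (1.14, 0.674, 1.16 and 1.13) and dispersion came from edgeR 4.0.16 in R 4.3.3 with filterByExpr, and all else from Python 3.11.15. The 31 gene lists, members and thresholds were chosen with earlier results of these data known. Named genes are the 25 highest per length, the 10 highest non-coding, the 3 highest per list by CPM, the 5 furthest above the others per library, the 10 of smallest CV, and skn-1, daf-7 and drh-1. The 4 libraries are biological replicates per the labels. They differed by 27.1 to 112 times Poisson noise (chi-square per degree of freedom), so no pair agreed within counting noise, which does not tell separate cultures from technical repeats. Alternatives were other scalings, filters, fold limits, denominators and each library left out.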

Additional observations from a re-analysis of the deposited data

Results flagged for a closer look

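Of 203 measures over the 4 libraries, 35 had a library whose gap to the nearest other library passed Dixon's 95% critical value for 4 samples, where chance gives about 1 in 20. That rate does not hold for the measures as a set, since some genes were picked for standing apart in 1 library or for a small spread, and shares of 1 library depend on each other. The library was replicate 2 in 28, replicate 3 in 4 and replicate 4 in 3 of them.

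In composition, replicate 2 stood apart in the protein-coding share (63.0%, others 86.1 to 89.3%), the ribosomal RNA share (33.9%, others 8.94 to 11.99%) and the pseudogene share (0.353%, others 0.499 to 0.522%). It also did so in the share of the 10 highest genes (6.63%, others 4.34 to 4.49%) and in the TMM factor (0.674, others 1.13 to 1.16).

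Replicate 2 was above the other libraries in the shares of actins and tubulins (1.29%) and of qPCR reference genes (0.603%), and below them in the summed share of heat-inducible chaperones (0.107%). The highest member of the last list per length, sip-1 at rank 82, was itself lowest in replicate 2 by TPM. Over its members that list did not go that way. Of its 9 genes with a mean of at least 5 CPM, 5 were above the median of the other libraries, and the median fold was 1.60. Replicate 3 was above them in pan-neuronal genes (0.530%). Replicate 4 was apart in the X chromosome share (6.37%, others 8.30 to 8.64%), glia (0.0294%) and coelomocytes (0.0297%).

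Among genes, replicate 2 was the high library for the ribosomal RNA rows rrn-3.1 (465694 CPM), rrn-2.1 (15397) and rrn-3.56 (16204). It was also the high library for the non-coding RNAs mrpr-1 (4698), srpr-2.1 (4951), rpr-1 (3237) and Y74C9A.6 (3013). Of epidermal and cuticle genes it was high in col-138 (244), rol-1 (184), col-88 (169), mua-3 (241) and wrt-6 (32.0). Of intestinal and metabolic genes it was high in asp-1 (1345), asp-6 (864), atp-1 (2131) and cyc-2.1 (705). Of the rest it was high in crt-1 (1346), daf-28 (16.3), srsx-34 (26.6) and idpc-3 (29.97). Replicate 3 was the high library for unc-25 (87.7), T01D3.3 (46.6) and ZK287.1 (27.8). These values are CPM, and all 23 genes were high in the library set apart. That direction is in part set by the naming rules, which pick high genes and none for being low. Over 9651 genes replicate 2 went the other way, with 158 at least 10-fold above and 804 at least 10-fold below.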

How the results depend on the processing

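Leaving out each library in turn moved the median Spearman coefficient between 0.817 and 0.937 and the biological coefficient of variation between 0.373 and 0.553, with replicate 2 the library that mattered. That coefficient was 0.897 with no filter. Counting genes from 10 reads gave 12525 per library, against 17089 from 1 read. The 100 highest genes held 31.1% of per-length levels and 32.8% of all gene counts. Ranked by read counts, 9 of the 25 highest genes stayed and 8 were ribosomal. Per length, shares were 0.00324% for ASI, 1.85% for muscle, 1.84% for germ line, 1.49% for sperm and 21.7% for ribosomal genes. As shares of all gene counts muscle was 2.54% and germ line 1.90%.

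The number of genes that set a library apart depended on the limit. At 5-fold replicates 1 to 4 had 14, 450, 167 and 24 above and 12, 1221, 176 and 79 below, and at 20-fold 0, 65, 7 and 0 above and 0, 239, 0 and 0 below. By total counts replicate 2 had 66 above and replicate 4 had 7 below. Chosen after seeing the data, scaling by protein-coding totals gave 3 above in replicate 1, 62 above in replicate 3 and 18 below in replicate 4. Without replicate 2, also chosen later, replicates 1, 3 and 4 had 0, 3 and 0 above and 0, 2 and 30 below. With the filter on the other 3 libraries, chosen later too, replicates 2 to 4 had 31, 6 and 0 above, since genes then no longer pass through the library described. The other causes were not tested.

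Of 145 named genes, 7 moved their mean CPM by over 1 SD under total counts, all among those of smallest CV, and none under RLE size factors, the scaling of DESeq2. No paired analysis was possible because only 1 group was described and no test between groups was made. A count of 0 allows 0.247 to 0.474 CPM, most in replicate 3, the shallowest library.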

Other observations

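Several non-coding RNAs differed between libraries in their own ways. F31C3.16 is among the 10 highest non-coding genes. The others are outside the named genes and were picked after their values were seen. The ncRNA C30E1.9, on the X chromosome, had 847, 284, 2432 and 469 CPM in replicates 1 to 4, highest in replicate 3. Among rows of the F31C3 clone on chromosome I, F31C3.16 had 549, 2800, 1097 and 71.0 CPM, F31C3.14 had 345, 1566, 1074 and 35.2 CPM, and F31C3.15 had 82.0, 317, 416 and 7.25 CPM. All of them were lowest in replicate 4.

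The germline list members perm-2 and perm-4, which encode proteins of the vitelline layer of the eggshell, differed from the rest of their list. The perm-2 level was 1824, 650, 888 and 1001 CPM and the perm-4 level 1386, 626, 736 and 774 CPM. Both were highest in replicate 1 and lowest in replicate 2.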
